A study of Mus musculus with 2 samples.

Results

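Immediate-early genes are switched on within minutes of a stimulus without the need for new protein, and heat-shock genes encode the chaperones of the cell. The set described here holds 40 genes, 28 immediate-early and 12 heat-shock, chosen by symbol from the 27998 genes of the deposited tables, and all 40 were found. The cells were mononuclear phagocytes sorted as MerTk+ CD64+ from B16 melanoma tumors (B16F0 cells, a line of C57Bl/6 origin) that grew in the skin of C57Bl/6 mice. 1 library came from *Fcmr*+/+ mice and 1 from their germline *Fcmr*-/- littermates (matched for sex, age and cage), which lack the Fc receptor for IgM in every cell type. Tumors of both genotypes were diced and digested with enzymes in a heated dissociator before the sort, so every cell of either group had gone through that step. The age of the mice and the number pooled per library are not given in the sources used here. With 1 library per genotype there is no replicate of either group, so the libraries are compared by size and counting error alone, without p-values.

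The immediate-early members work as a relay. Kinase signals acting on factors already present in the nucleus switch on *Fos*, *Jun*, Egr and Klf genes, whose proteins are themselves transcription factors. The same signals switch on brakes: Dusp proteins remove phosphates from MAP kinases, *Nfkbia* and *Tnfaip3* hold back NF-kB, and *Zfp36* marks short-lived mRNAs for decay. Heat-shock genes answer unfolded protein, the cytosolic ones through the factor HSF1 and *Hspa5* through the unfolded protein response of the endoplasmic reticulum. In macrophages both groups respond to microbial ligands and cytokines, and both are also well known to respond to tissue digestion.

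After the filters on cells, 6352 *Fcmr*+/+ cells held 128408544 unique molecular identifiers (UMIs, each a counted mRNA molecule) and 7999 *Fcmr*-/- cells held 124630621. The median cell had 17974 UMIs in the *Fcmr*+/+ library and 12911 in the *Fcmr*-/- library. A level is the share of a library's UMIs in counts per 1000000 UMIs (CPM), and its interval is an exact 95% Poisson interval that covers counting error only. *Fcmr* itself, on chromosome 1 of GRCm38 from 130865669 to 130880791, had 7 UMIs in the *Fcmr*+/+ and 6 in the *Fcmr*-/- library, so it could not check the labels. The 10 macrophage markers summed to 18873 CPM and 18779.6 CPM, with *Mertk* and *Fcgr1* (CD64) present in both. The 7 T and NK cell markers summed to 0.942 CPM in *Fcmr*+/+ and 15.4 CPM in *Fcmr*-/- cells (*Ncr1* at 0 in *Fcmr*+/+), the 5 melanoma markers to 40.2 CPM and 63.6 CPM, and no other list of another cell type passed 47.5 CPM. The 6 markers of type II interferon response summed to 56.1 CPM and 474 CPM. 73 cell barcodes occurred in both libraries.

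Cells of both libraries were clustered together without the members, which gave 10 clusters numbered by size, and named only where the markers allowed it. Cluster 1 (88 *Fcmr*+/+ and 2268 *Fcmr*-/- cells) was led by *Iigp1*, *Serpina3g*, *Cxcl9* and *Gbp4* and is called type II interferon-high-like. Cluster 7 (650 and 766 cells) was led by *Rhov*, *Sdc1*, *Adm* and *Nos2* and is called hypoxic-like, cluster 8 (232 and 791) by *Rsad2* and Ifit genes and is called type I interferon-high-like, and cluster 9 (94 and 511) by *Mfge8*, *Plpp3*, *Npy* and *Spp1* and is called lipid-associated-like. The hypoxic trait was not particular to cluster 7. At least 1.5-fold above the other cells were 8 of 8 hypoxic markers in clusters 7 and 8 and 6 of 8 in cluster 10. Of the melanoma markers, 4 of 5 were so in cluster 7. Cluster 5 (769 and 759 cells) was led by cell cycle genes and is called dividing-like. The others kept numbers only. Cluster 2 (1274 and 824) was led by *Ccl17* and *Il1r2*, cluster 3 (780 and 899) by *Cxcl3* and *Ppbp*, cluster 4 (959 and 676) by *Hbb-bs* and *Acp5*, cluster 6 (1138 and 345) by *Tfrc* and *Cnrip1*, and cluster 10 (368 and 160) by *Adm* and *Cdk18*. Clusters 1 and 9 came mostly from the *Fcmr*-/- library, and whether they stand for a state of cells or for that library cannot be told apart. The same limit holds in part for clusters 8 and 6, in which 77.3% and 23.3% of cells were *Fcmr*-/-.

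Immediate-early genes were on balance lower in *Fcmr*-/- cells and heat-shock genes slightly higher. Of the 39 members with at least 5 CPM in either library, 24 were lower and 15 higher. By part, 23 of 27 immediate-early members were lower, with a median log2 ratio of *Fcmr*-/- over *Fcmr*+/+ of -0.33 (1 CPM added to each), and 11 of 12 heat-shock members were higher, with a median of 0.11. The median over all 8701 genes that passed the same filter was 0.00, with quartiles of -0.12 and 0.12, and 4395 of them were higher. Summed, the 28 immediate-early members took 13249 CPM in *Fcmr*+/+ and 11622 CPM in *Fcmr*-/- cells, and the 12 heat-shock members 5727 CPM and 6177 CPM. In cells of 10000 to 20000 UMIs alone, 27 of 27 immediate-early members were lower and 7 of 12 heat-shock members higher. The immediate-early median there was -0.30 and the heat-shock median 0.06, beside 0.03 over all genes. The share of all genes in each direction was not counted in those cells.

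Most of these differences were small. At least 1.5-fold lower in *Fcmr*-/- cells were 4 of the 39 members, *Jun*, *Egr1*, *Klf2* and *Klf9*, beside 1.69% of all genes. None of the 39 was at least 1.5-fold higher, beside 2.4% of all genes. Just inside the threshold lay *Klf2* at -0.60 and just outside it *Klf4* at -0.49 and *Ier2* at -0.48. In cells of 10000 to 20000 UMIs alone, 7 of 39 were at least 1.5-fold lower, beside 2.34% of all genes, with *Jund*, *Klf4* and *Hspb1* besides these 4, and none was at least 1.5-fold higher, beside 2.14%. The remaining member, *Egr3*, had 3 and 6 UMIs and is not compared.

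**Figure D1:**
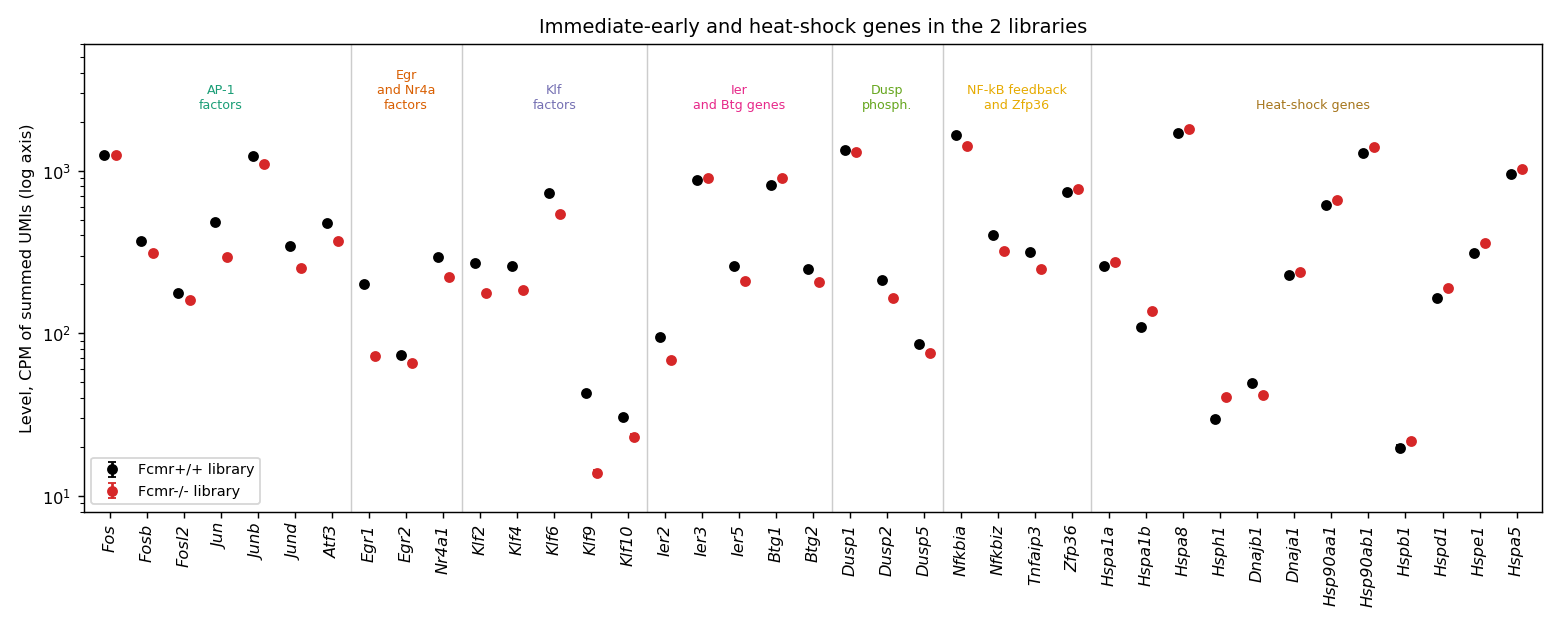
Level of the 39 members that passed the filter, in CPM of summed UMIs on a log axis, in the *Fcmr*+/+ (black) and *Fcmr*-/- (red) library; bars are exact 95% Poisson intervals and are mostly smaller than the points. *Egr1* (201 against 72.8 CPM) and *Klf9* (42.6 against 13.8 CPM) lie farthest apart, while *Fos* (1240.0 against 1249 CPM) nearly coincides.

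The AP-1 factors pair as dimers on AP-1 and CRE sites, FOS proteins with JUN proteins, and *Atf3* is a stress-induced partner. Their 7 members had a median log2 ratio of -0.24, and only *Fos* was not lower. *Fos* itself stood at 1240.0 CPM in *Fcmr*+/+ and 1249 CPM in *Fcmr*-/- cells, and its ratio was -0.16 in cells of 10000 to 20000 UMIs. *Jun*, its main partner, stood at 483 CPM (479 to 487) and 296 CPM (293 to 299), a log2 ratio of -0.70. *Jun* was lower in 10 of 10 clusters, from -0.88 in the hypoxic-like cluster 7 to -0.05 in cluster 9. *Jund*, a broadly expressed relative of *Jun*, was also lower in 10 of 10 clusters, with 343 and 252 CPM in the libraries and a log2 ratio of -0.44 (-0.68 in cells of 10000 to 20000 UMIs, past 1.5-fold). *Atf3* stood at 476 and 370.0 CPM, and its ratio ran from -0.81 in cluster 7 to 0.47 in cluster 9. *Fosb* (-0.24), *Junb* (-0.16) and *Fosl2* (-0.15) differed less, and *Fosl2* averaged -0.01 within clusters. Without clusters 1 and 9 the ratio of *Jun* was -0.57, short of 1.5-fold.

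The Egr factors are zinc finger proteins that bind GC-rich sites, and *Nr4a1* is an orphan nuclear receptor induced with them. *Egr1*, on chromosome 18 from 34859823 to 34864984, was 201 CPM (199 to 204) in *Fcmr*+/+ and 72.8 CPM (71.3 to 74.3) in *Fcmr*-/- cells. Its log2 ratio of -1.46 had a counting interval of -1.50 to -1.43 before the CPM was added. *Egr1* was lower in 10 of 10 clusters, from -1.64 in the dividing-like cluster 5 (182 against 57.7 CPM) to -0.53 in the type I interferon-high-like cluster 8 (166 against 115 CPM), with a mean of -1.13. *Egr2*, of the same family, stood at 73.5 and 65.97 CPM, a log2 ratio of -0.15, lower in 7 of 10 clusters and at 0.59 in cluster 8. *Nr4a1* stood at 293 and 220.3 CPM (-0.41) and was lower in 9 of 10 clusters. The 3 genes were thus lower to unequal degrees, and *Egr1* and *Egr2*, which share a family, had ratios that differ by more than the counting intervals of either (-1.50 to -1.43 and -0.20 to -0.11).

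The Klf factors, zinc finger proteins of which *Klf2* and *Klf4* are known to restrain inflammatory genes in macrophages and *Klf9* is known to be induced by glucocorticoids, were the part with the lowest median, -0.49, and all 5 were lower. *Klf9* stood at 42.6 CPM (41.5 to 43.8) in *Fcmr*+/+ and 13.8 CPM (13.2 to 14.5) in *Fcmr*-/- cells, a log2 ratio of -1.56, and was lower in 10 of 10 clusters, from -2.25 in cluster 4 to -0.85 in cluster 1. *Klf2* stood at 270.4 and 178 CPM (-0.60). It was lower in 9 of 10 clusters, with 517 against 214 CPM in the hypoxic-like cluster 7 (-1.27), 498 against 211 CPM in cluster 8 (-1.23), and 378 against 393 CPM in cluster 2 (0.05), where the libraries were nearly level. *Klf4* (260.5 and 185 CPM, -0.49, and -0.73 in cells of 10000 to 20000 UMIs) and *Klf6* (724 and 543 CPM, -0.41) were lower in all 10 clusters. *Klf10* stood at 30.5 and 23.1 CPM (-0.39). Without clusters 1 and 9 the ratio of *Klf2* was -0.52, short of 1.5-fold, while *Egr1* and *Klf9* stayed past it at -1.20 and -1.46.

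Of the small immediate early response genes, *Ier2* and *Ier5* were lower in *Fcmr*-/- cells and *Ier3*, which is known to protect cells from death, was level. *Ier2* stood at 95.1 and 67.9 CPM (-0.48), *Ier5* at 260.3 and 210.3 CPM (-0.31) and *Ier3* at 876 and 896 CPM (0.03). The antiproliferative genes *Btg1* and *Btg2*, relatives that recruit mRNA deadenylases, went opposite ways. *Btg2* stood at 247 and 208 CPM (-0.25) and was lower in 10 of 10 clusters, while *Btg1* stood at 812 and 906 CPM (0.16) and was higher in 5 clusters and lower in 5, with a mean of 0.01 and a ratio of -0.11 in cells of 10000 to 20000 UMIs.

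The brakes on MAP kinases and NF-kB differed by less than 1.5-fold between the libraries. *Dusp1*, which inactivates p38 and JNK, stood at 1339.7 and 1308 CPM (-0.03) and was higher in 5 clusters and lower in 5. *Dusp2* stood at 212 and 165 CPM (-0.36) and *Dusp5* at 85.4 and 75.8 CPM (-0.17). *Nfkbia*, the inhibitor that keeps NF-kB in the cytoplasm, stood at 1658 and 1411 CPM (-0.23), *Nfkbiz*, a nuclear regulator of NF-kB, at 401 and 318 CPM (-0.33), and *Tnfaip3*, the ubiquitin-editing enzyme A20, at 314 and 247 CPM (-0.34). All 3 were lowest relative to *Fcmr*+/+ among dividing-like or lipid-associated-like cells, with *Nfkbia* at -0.59 and *Tnfaip3* at -0.66 in cluster 5 and *Nfkbiz* at -0.72 in cluster 9. *Zfp36*, the mRNA decay factor tristetraprolin, went the other way, with 736 and 769.6 CPM (0.06), and was higher in 9 of 10 clusters by at most 0.40, though it was at -0.03 in cells of 10000 to 20000 UMIs.

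Windows of 300 bases around RefSeq starts on GRCm38.p6 (250 before, 50 after) were searched on both strands for the letters of known elements, and 32 of 40 members had a window. A match of letters is a description and not a site in use. The members had 42 windows in all, and a member was counted if any of its windows matched. The percentages beside the counts are of single windows, so counts of members lie somewhat high against them. Among the 23 immediate-early members with a window, the full CRE, TGACGTCA, occurred for *Btg2* and *Dusp1* (beside 1.79% of all windows). The CArG box bound by SRF occurred for *Egr2*, *Dusp5* and *Zfp36* (1.63%). An AP-1-like form that admits any middle base, TGANTCA, occurred for *Klf9* as TGAATCA and for *Tnfaip3* as TGACTCA (7.81%). Of the heat-shock members *Hspa5* held it, as TGAGTCA. The kappaB site occurred for 8 of 23, *Nfkbia* and *Tnfaip3* among them, and for 4 of 9 heat-shock members (8.46%). These 4 are not separate cases. *Hspa1a* and *Hspa1b* hold the same letters at the same position, and the windows of *Hspd1* and *Hspe1* share 1 match. The windows shown belong to genes that varied together from cell to cell, as the correlations across cells show, *Dusp1* (chr17:26508423-26508722, minus strand, CRE in capitals) and *Zfp36* (chr7:28379179-28379478, minus strand, CArG box in capitals) for the group of *Fos*, and *Nfkbia* (chr12:55492598-55492897, minus strand, kappaB site in capitals) for the NF-kB feedback group.
Dusp1: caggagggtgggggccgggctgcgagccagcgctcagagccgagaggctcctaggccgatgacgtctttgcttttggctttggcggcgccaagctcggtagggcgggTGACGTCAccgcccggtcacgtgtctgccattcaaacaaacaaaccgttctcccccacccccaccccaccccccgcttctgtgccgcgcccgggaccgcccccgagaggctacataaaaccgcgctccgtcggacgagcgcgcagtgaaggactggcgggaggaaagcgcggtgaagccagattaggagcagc
Zfp36: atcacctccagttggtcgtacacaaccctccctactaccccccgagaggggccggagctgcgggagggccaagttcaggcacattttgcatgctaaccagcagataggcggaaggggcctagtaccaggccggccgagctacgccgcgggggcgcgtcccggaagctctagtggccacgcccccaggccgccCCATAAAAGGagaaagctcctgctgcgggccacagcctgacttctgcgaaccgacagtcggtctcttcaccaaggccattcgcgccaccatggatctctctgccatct
Nfkbia: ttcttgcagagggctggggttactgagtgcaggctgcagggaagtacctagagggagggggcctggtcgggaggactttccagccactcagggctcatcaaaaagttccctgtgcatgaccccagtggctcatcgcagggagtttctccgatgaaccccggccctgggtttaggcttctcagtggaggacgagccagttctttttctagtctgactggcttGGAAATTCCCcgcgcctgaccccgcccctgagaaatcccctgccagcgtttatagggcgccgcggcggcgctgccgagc

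The heat-shock members differed less than the immediate-early ones in the libraries as a whole. The chaperonin pair of mitochondria, *Hspd1* (Hsp60) and *Hspe1* (Hsp10), was higher in *Fcmr*-/- cells in 10 of 10 clusters. *Hspd1* stood at 164 CPM (162 to 166) and 189 CPM (187 to 191), a log2 ratio of 0.20, and *Hspe1* at 309 CPM (306 to 312) and 359.6 CPM (356 to 363), a log2 ratio of 0.22. Both differences were small, from 0.13 to 0.49 over clusters for *Hspd1* and from 0.00 (level, in cluster 1) to 0.39 for *Hspe1*. The first exons of the pair lie head to head on chromosome 1, *Hspd1* on the minus strand up to 55088243 and *Hspe1* on the plus strand from 55088132. The cytosolic chaperones *Hspa8* (1708 and 1802 CPM, 0.08), *Hsp90ab1* (1283 and 1393 CPM, 0.12) and *Hsp90aa1* (614 and 655 CPM, 0.09) and the endoplasmic reticulum chaperone *Hspa5* (953 and 1027 CPM, 0.11) were higher by at most 0.12, and *Hsp90aa1* was at -0.04 in cells of 10000 to 20000 UMIs. Of the J-domain partners that pass clients to Hsp70, *Dnaja1* was level (229 and 238 CPM, 0.05), and *Dnajb1* was the heat-shock member that was lower (49.7 and 41.8 CPM, -0.24).

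The inducible Hsp70 genes *Hspa1a* and *Hspa1b* lie beside each other on chromosome 17 and are near-identical, so reads that fit both copies may be lost or counted for either. *Hspa1a* stood at 259 and 273 CPM (0.08) and *Hspa1b* at 109 and 137 CPM (0.33). Together the copies took 367 CPM in *Fcmr*+/+ and 410.4 CPM in *Fcmr*-/- cells, a log2 ratio of 0.16, and within clusters their sum was higher in 9 of 10, with a mean of 0.43. The largest of these ratios was in cluster 6, with 238 against 605 CPM (1.34), and the lowest in cluster 8, with 398 against 388 CPM (-0.04). *Hsph1* (Hsp110), which recharges Hsp70, stood at 29.7 CPM (28.8 to 30.7) and 40.2 CPM (39.1 to 41.4), the highest ratio of the 39 members at 0.43, and was higher in 9 of 10 clusters. *Hspb1*, a small heat-shock protein, stood at 19.7 and 21.6 CPM (0.13), but its ratio ran from -2.36 in cluster 10 (524 and 31 UMIs) to 2.54 in cluster 1 (3 and 608 UMIs). In cells of 10000 to 20000 UMIs the ratio was -0.27 for *Hspa1a*, 0.06 for *Hspa1b* and -0.64 for *Hspb1*, so the direction of *Hspa1a* and *Hspb1* in the libraries depends on which cells are compared.

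HSF1 binds repeats of GAA in alternating direction. In the same search, the 2-unit heat-shock element, GAANNTTC or TTCNNGAA, occurred in the windows of 7 of 9 heat-shock members and 3 of 23 immediate-early members, beside 15.1% of all 32851 windows. The 3-unit form, GAANNTTCNNGAA or TTCNNGAANNTTC, which contains the 2-unit form, occurred for *Hspd1*, *Hspe1* and *Hsph1* and no immediate-early member, beside 0.603% of windows. *Hspd1* and *Hspe1* are transcribed in opposite directions, and their windows share a single run of 4 units at chr1:55088059-55088076. *Hspd1* and *Hspe1* are the members higher in all 10 clusters (*Hspe1* at 0.00, so level, in cluster 1), and *Hsph1* the member with the highest ratio, though at -0.36 in cluster 1. *Hspa8*, *Hsp90aa1* and *Hsp90ab1* had no window, so the search does not cover them. Whether the element has a part in the ratios of these genes was not tested. The windows of *Hspe1* (chr1:55087898-55088197, plus strand) and *Hsph1* (chr5:149636287-149636586, minus strand) are shown for these genes with the 3-unit form in capitals. In *Hsph1* it lies after the start, and a 2-unit match, TTCTCGAA, that begins 33 bases before the start is left in lower case. Those of *Hspa1a* (chr17:34972107-34972406, minus strand) and *Hspa1b* (chr17:34959189-34959488, minus strand) are shown as the near-identical copies, with the 2-unit form in capitals. They are identical at 296 of 300 positions.
Hspe1: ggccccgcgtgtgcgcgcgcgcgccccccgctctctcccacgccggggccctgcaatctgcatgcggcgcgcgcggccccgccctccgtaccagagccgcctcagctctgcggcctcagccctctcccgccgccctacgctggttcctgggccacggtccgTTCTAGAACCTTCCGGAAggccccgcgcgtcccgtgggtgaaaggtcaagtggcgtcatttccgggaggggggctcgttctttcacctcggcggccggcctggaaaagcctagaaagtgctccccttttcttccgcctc
Hsph1: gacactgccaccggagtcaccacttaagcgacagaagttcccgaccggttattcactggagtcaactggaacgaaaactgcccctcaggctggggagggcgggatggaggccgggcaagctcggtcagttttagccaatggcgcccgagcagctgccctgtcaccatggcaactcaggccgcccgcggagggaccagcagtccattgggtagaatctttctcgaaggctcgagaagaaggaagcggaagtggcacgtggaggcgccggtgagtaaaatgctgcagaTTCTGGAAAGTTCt
Hspa1a: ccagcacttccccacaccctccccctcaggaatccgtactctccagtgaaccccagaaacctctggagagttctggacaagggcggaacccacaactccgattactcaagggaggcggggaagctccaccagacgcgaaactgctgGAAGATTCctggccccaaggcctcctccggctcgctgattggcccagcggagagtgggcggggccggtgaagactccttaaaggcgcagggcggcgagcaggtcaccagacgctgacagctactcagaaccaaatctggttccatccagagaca
Hspa1b: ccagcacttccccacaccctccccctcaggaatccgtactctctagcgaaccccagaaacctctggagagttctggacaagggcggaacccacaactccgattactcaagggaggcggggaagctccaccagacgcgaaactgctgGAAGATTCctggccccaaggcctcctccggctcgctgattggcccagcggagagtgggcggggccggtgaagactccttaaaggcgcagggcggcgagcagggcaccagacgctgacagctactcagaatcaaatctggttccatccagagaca

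The mean of the within-cluster ratios gives each cluster the same weight and so leaves aside the different mix of states in the libraries. On it, 3 of 39 members were at least 1.5-fold lower (*Egr1* -1.13, *Klf2* -0.68, *Klf9* -1.43), beside 0.885% of all genes, and 1 was at least 1.5-fold higher (*Hspa1b* 0.61), beside 0.931%. *Hspa1b* was past that fold in the clusters as described but not after scaling by the median ratio, at either of the other resolutions, with 20 principal components, or without related genes among the variable genes. *Jun* averaged -0.50 within clusters, short of 1.5-fold. The median over immediate-early members was -0.24 and over heat-shock members 0.12, beside 0.04 over all genes. Lower in all 10 clusters were 7 members, namely *Jun*, *Jund*, *Egr1*, *Klf4*, *Klf6*, *Klf9* and *Btg2*, and higher in all 10 were *Hspd1* and *Hspe1*. The share of all genes with the same direction in all 10 clusters was not counted. The clusters are parts of the same libraries and not replicates, so a shift of a whole library can recur in each of them.

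**Figure D2:**
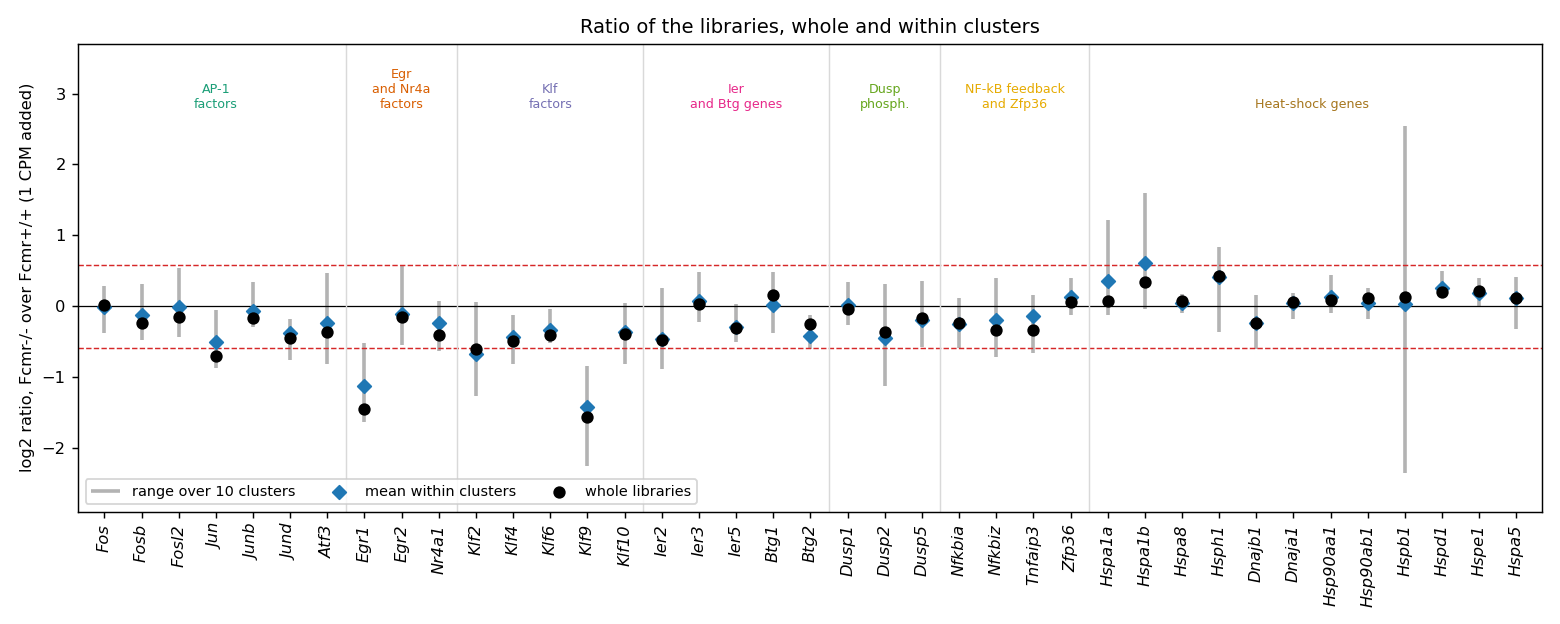
log2 ratio of *Fcmr*-/- over *Fcmr*+/+ (1 CPM added) for each of 39 members in the whole libraries (black circles), as the mean within clusters (blue diamonds) and as the range over 10 clusters (gray bars); dashed red lines mark 1.5-fold. *Egr1*, *Klf9* and, close to it, *Klf2* (-0.60 and -0.68) lie below the lower line in both measures, and the bar of *Hspb1* spans from -2.36 to 2.54.

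By part, the Klf factors had a negative median in 10 of 10 clusters, from -0.82 in cluster 8 to -0.21 in cluster 1. The AP-1, Egr and Nr4a, and Ier and Btg parts had negative medians in 9 of 10 clusters, and the Dusp and the NF-kB feedback parts in 8 (NF-kB feedback at -0.0004, so level, in cluster 3). The exceptions were cluster 9 for AP-1 (0.12) and for Egr and Nr4a (0.07), and cluster 8 for Ier and Btg (0.26). These parts have 3 to 7 members each, so a median can differ from the ratio of the sums. In the libraries the Ier and Btg sum was level (2290 and 2288 CPM, median -0.25), while the sums of the other immediate-early parts were lower. In cluster 9 the Dusp sum was higher (0.19) though the median was -0.53. Heat-shock genes had a positive median in 9 of 10 clusters, from -0.03 in cluster 1 to 0.31 in cluster 6. In cluster 10 it was 0.01, with 6 of 12 members higher, below the median of 0.06 over all genes there. Medians over all genes ran from -0.01 in cluster 3 to 0.09 in cluster 9. NF-kB feedback genes differed by state, with a median of -0.60 in the dividing-like cluster 5 and 0.14 in the type I interferon-high-like cluster 8.

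**Figure D3:**
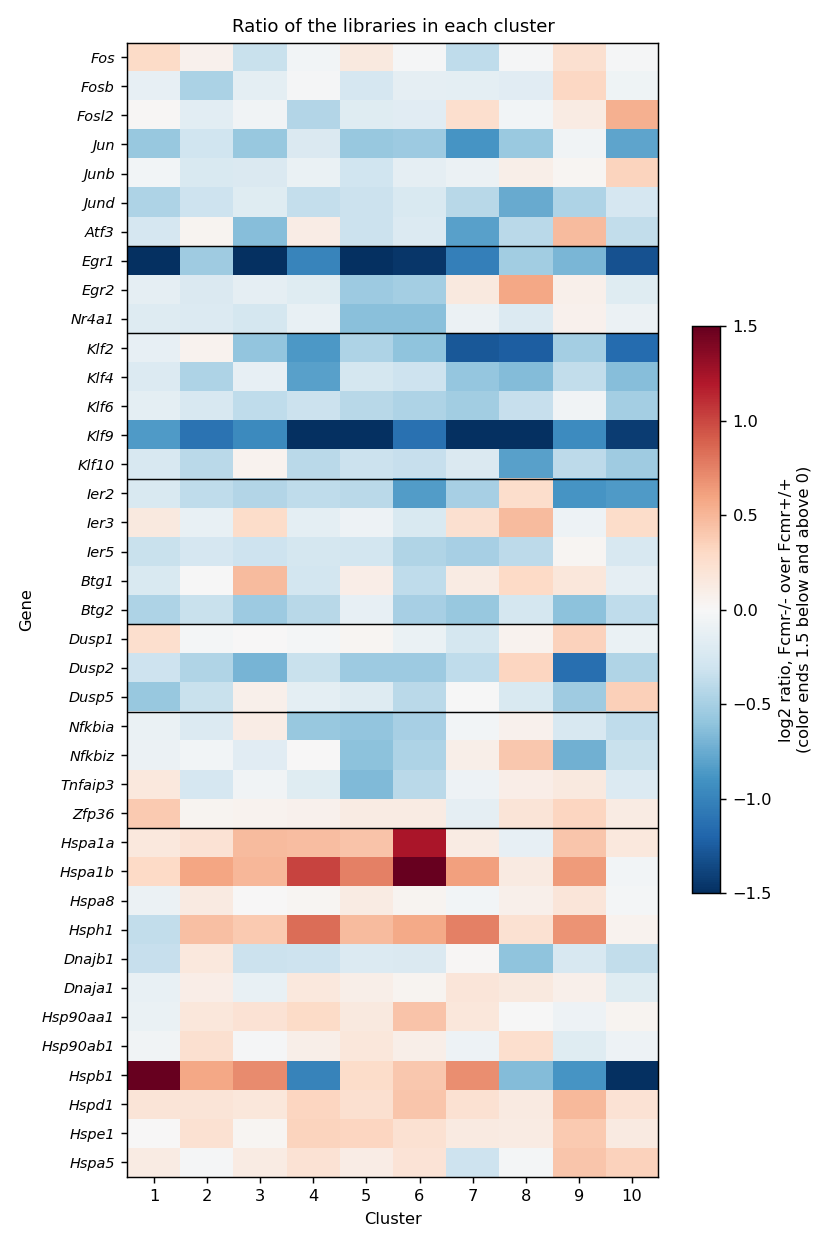
log2 ratio of *Fcmr*-/- over *Fcmr*+/+ (color) for 39 members (rows, black lines separate the parts) in 10 clusters (columns). The rows of *Egr1* and *Klf9* are blue in every column, with *Klf9* at -2.25 in cluster 4, and the heat-shock rows are mostly pale red.

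Across macrophage states the summed members varied more than between the libraries. Since the clusters hold the genotypes in unequal parts, levels by state are given for each library by itself, *Fcmr*+/+ first. The immediate-early sum was lowest in the lipid-associated-like cluster 9 in both libraries (8642 and 8673 CPM). It was highest in the hypoxic-like cluster 7 in *Fcmr*+/+ (17541 CPM, 2.03-fold above cluster 9) and in the type I interferon-high-like cluster 8 in *Fcmr*-/- cells (15372 CPM, 1.77-fold). The heat-shock sum ran from cluster 9 (4379 and 4814 CPM) to cluster 7 (7412 and 7579 CPM) in both. Of 27 immediate-early members, 13 had their highest level in the same cluster in both libraries, 6 in cluster 2, 4 in cluster 3 and 3 in cluster 7, and 9 had their lowest in cluster 9 in both. Of 12 heat-shock members, 5 were highest in cluster 7 in both. How many of all genes had their highest or lowest level in the same cluster in both libraries was not counted. Clusters 7 and 8 had the shallowest cells, with medians of 8952 and 8980 UMIs. Over both libraries together the folds were 1.9 and 1.59, and with every cell thinned to 6000 UMIs 1.89 and 1.69.

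Some parts kept their highest state in both libraries. NF-kB feedback genes summed highest in cluster 3, the cluster led by *Cxcl3* with *Il1a* and *Il1b* among its leading genes (4231 and 4396 CPM), and lowest in cluster 4 (2074 and 1755 CPM). *Nfkbia* was 2648 and 2858 CPM in cluster 3 and 993 and 669 CPM in cluster 4. *Zfp36*, in contrast, was highest in cluster 2 in both (979 and 1010.4 CPM). The Egr and Nr4a factors summed highest in cluster 2 (833 and 674 CPM) and lowest in cluster 9 (225 and 212 CPM). *Egr1* was lowest in cluster 9 in both libraries (57.6 and 35.5 CPM) and highest in cluster 6 in *Fcmr*+/+ (279 CPM, a fold of 4.84) and in cluster 2 in *Fcmr*-/- cells (183 CPM, a fold of 5.15).

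AP-1 members divided among states. *Jun* was highest in cluster 7 in both libraries (883 and 479.5 CPM) and low in cluster 3 (241 and 163 CPM), where *Fosb* was at 470.3 and 424 CPM, near or at its highest. *Junb* was highest in cluster 2 in both (1573 and 1338 CPM), and *Fos* peaked in cluster 7 in *Fcmr*+/+ and in cluster 2 in *Fcmr*-/- cells (1586 and 1618 CPM). *Atf3* was highest in cluster 7 in *Fcmr*+/+ (879 CPM) and in cluster 4 in *Fcmr*-/- cells (501 CPM).

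Among the Klf factors, *Klf4* was highest in cluster 2 (433 and 314 CPM) and lowest in the dividing-like cluster 5 (144 and 120.0 CPM) in both libraries. *Klf2* was highest in cluster 7 in *Fcmr*+/+ (517 CPM) and in cluster 2 in *Fcmr*-/- cells (393 CPM), and *Klf9* in cluster 8 in *Fcmr*+/+ (73.2 CPM) and in cluster 2 in *Fcmr*-/- cells (25.8 CPM). The states in which *Klf2* and *Klf9* were highest thus differed between the libraries. Of the phosphatases, *Dusp2* (398 and 244 CPM) and *Dusp5* (142 and 149.7 CPM) were highest in cluster 3 in both. *Ier5* was highest in cluster 7 (412 and 291 CPM) and *Ier2* in cluster 2 (143 and 109 CPM), and both were lowest in cluster 9. *Btg1* was highest in cluster 7 (2108 and 2298 CPM) and lowest in cluster 6 (395 and 303 CPM), while *Btg2* was highest in cluster 2 (456 and 362 CPM).

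Among the heat-shock members *Hspa1a*, *Hspa1b* and *Hspb1* varied most over states. *Hspa1a* ran from cluster 9 (41.2 and 55.4 CPM) to the hypoxic-like cluster 7 (829.6 and 905 CPM), folds of 20.1 and 16.3, and *Hspa1b*, also from cluster 9 (10.2 and 16.4 CPM) to cluster 7 (310.1 and 476 CPM). *Hspb1* (74.8 and 122 CPM), *Hsph1* (59.1 and 101 CPM) and *Hsp90aa1*, the inducible Hsp90 (1110.0 and 1247 CPM), were highest in cluster 7 in both libraries as well. Melanoma markers were also higher in cluster 7 (4 of 5), and whether tumor cell RNA adds to these levels was not tested. The constitutive relative *Hsp90ab1* ranged from 970.1 to 1571 CPM in *Fcmr*+/+ and from 943 to 1653 CPM in *Fcmr*-/- cells. The mitochondrial *Hspd1* ran otherwise, highest in cluster 6 (201 and 268 CPM) and lowest in cluster 8 (101 and 111 CPM), with 120.1 and 141 CPM in cluster 7.

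**Figure D4:**
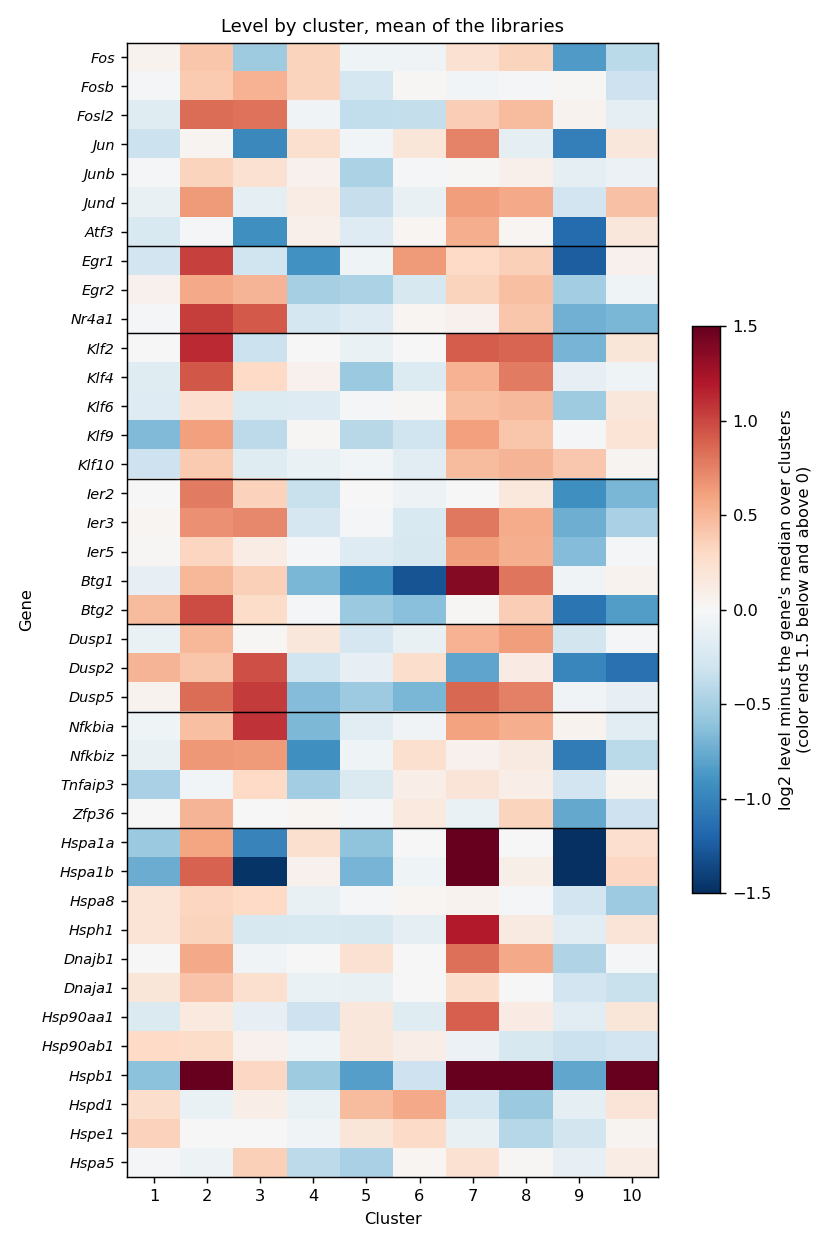
Level of 39 members by cluster, as the mean over both libraries of log2 of CPM plus 1, minus the median of that mean over the 10 clusters (color). Cluster 9 is blue in most rows, and *Hspa1a*, at 829.6 CPM in *Fcmr*+/+ and 905 CPM in *Fcmr*-/- cells, is dark red in cluster 7.

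With every cell thinned to 6000 UMIs (443 shallower *Fcmr*-/- cells left out), the median cell held 77 immediate-early UMIs in *Fcmr*+/+ and 67 in *Fcmr*-/-, with 10th and 90th percentiles of 36 and 139 against 33 and 122. The median cell held 30 and 32 heat-shock UMIs. All thinned cells of both libraries held at least 1 UMI of each group. The variance over the mean of the thinned counts (the Fano factor, 1 for pure counting noise) was 30.2 and 28.4 for *Hspa1a*, 22.1 and 25.7 for *Hspb1*, 9.87 and 7.68 for *Fos* and 1.41 and 1.42 for *Hspd1*. The 1% of cells with most *Hspb1* held 80.3% of its UMIs in *Fcmr*+/+ and 88.9% in *Fcmr*-/- cells. For *Hspa1a* that share was 31.4% and 31.2%. Counting noise adds to such shares at low counts, so they are not compared between genes.

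Correlation across the cells of a library (6352 and 7999 cells, values centred within clusters) is given as a description, since the points share a library and depth. Many immediate-early members varied with each other, heat-shock members with each other, and the groups hardly with one another. *Klf9* (r = 0.023 in *Fcmr*+/+ and 0.071 in *Fcmr*-/- cells) and *Klf10* (0.0099 and 0.0020) hardly varied with their own group. In *Fcmr*-/- cells *Jun* went more with the heat-shock group (0.232) than with the immediate-early group (0.140). The pairs with r of at least 0.2 in both libraries were 98 of 378 immediate-early pairs, 26 of 66 heat-shock pairs and 3 of 336 mixed pairs. After thinning, these were 50, 11 and 1. Summed levels of the groups had r = 0.111 in *Fcmr*+/+ and 0.0467 in *Fcmr*-/- cells.

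The tightest immediate-early group joined *Fos* with a pair of brakes. *Fos* and *Dusp1* had r = 0.602 and 0.577 (0.529 and 0.509 thinned) in *Fcmr*+/+ and *Fcmr*-/- cells, *Fos* and *Zfp36* had 0.583 and 0.522 (0.481 and 0.448 thinned), and *Dusp1* and *Zfp36* had 0.545 and 0.536 (0.438 and 0.454 thinned). NF-kB feedback formed a second group, with 0.53 and 0.511 (0.42 and 0.426 thinned) for *Nfkbia* and *Nfkbiz* and 0.528 and 0.454 (0.404 and 0.362 thinned) for *Nfkbia* and *Tnfaip3*. *Jun* went with *Atf3* at 0.468 and 0.384 (0.371 and 0.306 thinned), and of all immediate-early members *Jun* went most with *Hspa1a*, at 0.323 and 0.334 (0.266 and 0.277 thinned). By part, the mean r was highest within the NF-kB feedback genes (0.41 and 0.38) and between these and the Dusp phosphatases (0.30 and 0.28), and it was 0.21 and 0.17 within AP-1 and 0.20 and 0.20 within the heat-shock genes. In the heat-shock group *Hspa1a* and *Hspa1b* had 0.702 and 0.742 (0.635 and 0.674 thinned), which reads split between the copies could also give, and *Hspa1b* and *Hsp90aa1* had 0.414 and 0.394 (0.325 and 0.322 thinned).

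**Figure D5:**
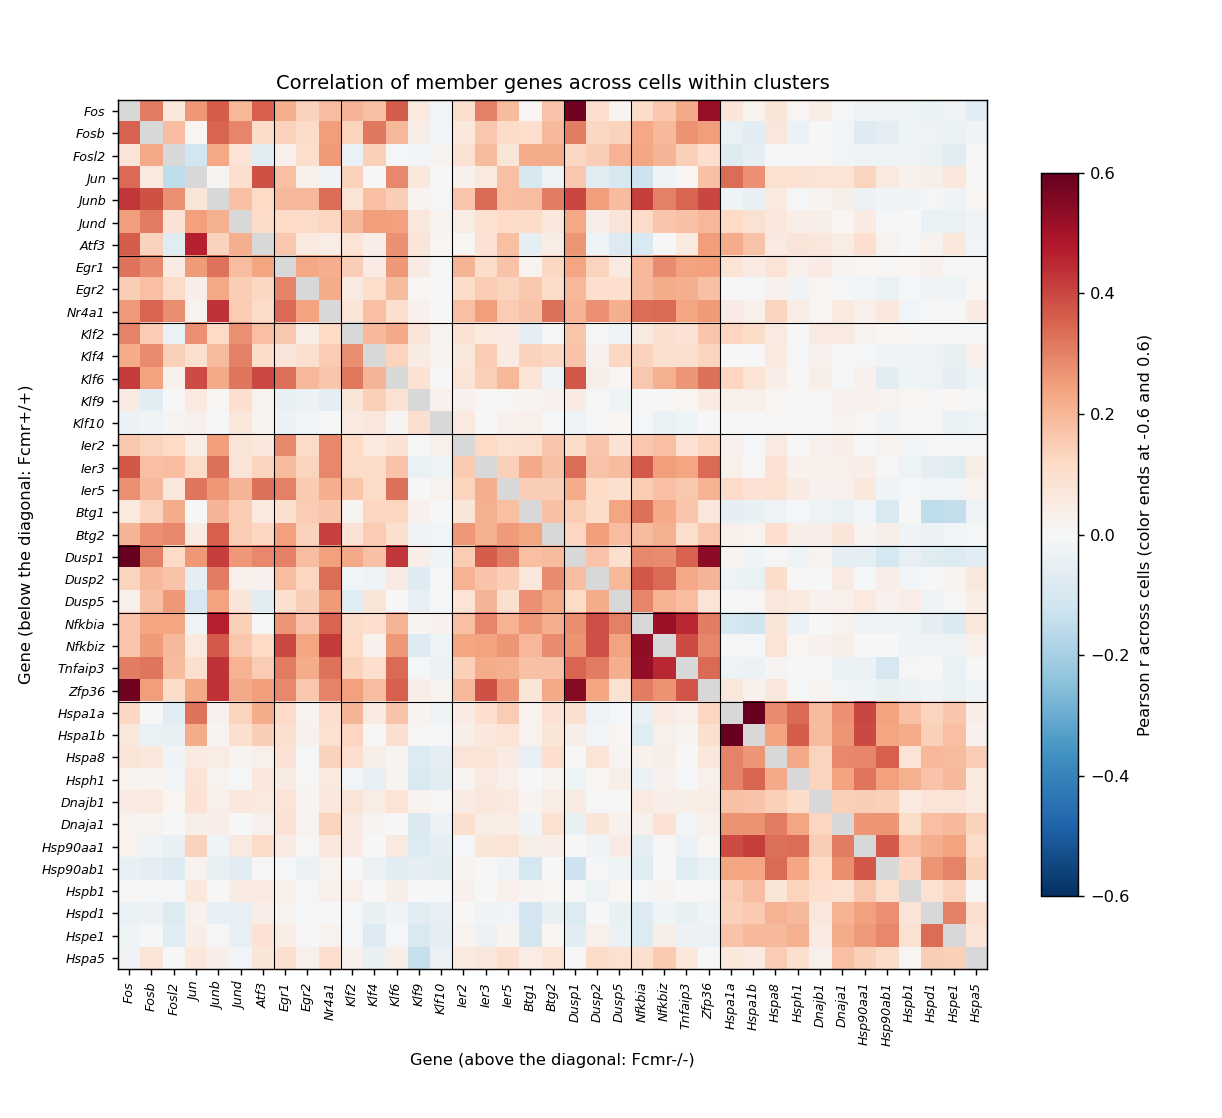
Pearson r across cells between 39 members, centred within clusters, below the diagonal for *Fcmr*+/+ and above it for *Fcmr*-/- cells (color). Red blocks lie along the immediate-early and the heat-shock genes, the mixed block is pale, and the squares of *Jun* with *Hspa1a* in that block (0.323 and 0.334) stand out.

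Of 2537 other genes with at least 50 CPM in both libraries, those that varied most with the summed immediate-early members were mainly inflammatory: the neutrophil chemokine *Cxcl2* (r = 0.529 and 0.521 in *Fcmr*+/+ and *Fcmr*-/-), the kinase *Pim1* (0.506 and 0.47), *Cd83* (0.459 and 0.425), *Ifrd1*, *Csrnp1*, *Cd14*, *Il1b*, *Ccrl2*, *Tnf* (0.43 and 0.359) and *Cebpb*. Their own levels in the libraries did not all go the way of the members, with *Cxcl2* at 3473 and 3456 CPM, *Il1b* at 1645 and 1953 CPM, and *Tnf* at 259 and 134 CPM (-0.94). With the heat-shock members the highest were the nucleolar protein *Npm1* (0.236 and 0.239), the translation factor *Eef1g*, *Manf*, *Ran*, *Rhob*, *Calr* (0.262 and 0.193), *Hsp90b1* (0.244 and 0.186), *Ranbp1*, *Polr2l* and *Pdia6*. *Manf*, *Calr*, *Hsp90b1* and *Pdia6* belong to the endoplasmic reticulum. All of these r values were under 0.27.

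Other genes of the same pathways, from lists that leave out the members, mostly differed by less than 1.5-fold. The lists were chosen with earlier results of these data known, so they are no independent check on the members. Among all genes, 49.5% were lower and 50.5% higher, with 1.69% and 2.4% past 1.5-fold. Of 32 further immediate-early genes that passed the filter, 28 were lower and 4 were at least 1.5-fold lower, among them the small Maf factor *Maff* (34.05 and 19.9 CPM, -0.74) and *Ppp1r15a* (GADD34), which restores translation after stress (119 and 74.5 CPM, -0.67). Of 21 further NF-kB genes, 14 were lower and none was past 1.5-fold. Of 35 further chaperones, 22 were higher, none was at least 1.5-fold higher, and those at least 1.5-fold lower were *Fkbp5*, an Hsp90 co-chaperone known to be induced by glucocorticoids (40.4 and 11.7 CPM, -1.70), and *Hmox1*, the heme oxygenase (2998 and 1721 CPM, -0.80). The summed further chaperones were 8003 CPM in *Fcmr*+/+ and 6687 CPM in *Fcmr*-/- cells, a log2 ratio of -0.26, against their median of 0.04. *Hmox1*, an enzyme and not a chaperone, held 2998 and 1721 CPM of these sums and most of the difference between them. Of 19 genes of endoplasmic reticulum stress, 14 were higher and none was past 1.5-fold. The medians were -0.23, -0.10, 0.04 and 0.10 in that order.

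Depth, mitochondrial share and other cell types differed between the libraries beside these results. In cells of under 10000, of 10000 to 20000 and of over 20000 UMIs, the immediate-early median was -0.32, -0.30 and -0.39 and the heat-shock median 0.07, 0.06 and 0.16. Over all genes the median in these cells was 0.04, 0.03 and 0.02. In cells with under 3%, 3% to 6% and over 6% mitochondrial UMIs, the immediate-early median was -0.09, -0.34 and -0.43 and the heat-shock median 0.24, 0.14 and 0.06. The median over all genes was 0.05, 0.01 and -0.01 there. In the cells with the lowest mitochondrial share (860 *Fcmr*+/+ and 1917 *Fcmr*-/- cells) the members differed in both directions. There 7 were at least 1.5-fold lower, beside 4.24% of all genes (*Jun*, *Jund*, *Atf3*, *Egr1*, *Klf2*, *Klf4* and *Klf9*), and 3 at least 1.5-fold higher, beside 5.42% (*Hspa1b*, *Hsph1* and *Hspb1*). The Klf median was -0.60 there, the NF-kB feedback median 0.11 and the Egr and Nr4a median 0.14. The ratio of *Egr1* was -0.59 in those cells. Without cells that held 2 or more UMIs of the dendritic, T and NK, B, neutrophil, melanoma, fibroblast or endothelial markers, which left 3473 and 4190 cells, the medians were -0.28 and 0.11. Each genotype is 1 library, so the handling of that library and the genotype cannot be told apart.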

How the data were processed

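The deposited files of both libraries hold raw counts (UMIs per gene in each called cell), which the authors obtained with Cell Ranger on GRCm38 (mm10) and did not normalize. The submitters' processing notes also name Seurat 2.1.0. Cells with 200 to 7000 genes and at most 30% mitochondrial UMIs were kept, as in the study's methods. Members were matched by symbol, and coordinates were taken by Ensembl identifier from the GENCODE annotation of the same build. UMIs were summed per library or cluster as CPM. Ratios are log2 values with 1 CPM added to each level. Genes with under 5 CPM in both libraries were left out of counts and medians. Intervals are exact 95% Poisson intervals, or exact conditional intervals for ratios, and cover counting error only. Clusters came from Seurat 5.3.0 in R 4.3.3 with 1305 variable genes (34 members taken out of 1339), 10 principal components, 30 neighbors and a resolution of 0.8. Scrublet, in scanpy 1.11.5, called 0 doublets in each library, so it did not work here, and removal of the 5% highest scores served as an alternative. Sums and ratios were tested on simulated data. The named genes are all members, genes of the further lists with at least 20 CPM and past 1.5-fold, the 10 genes most correlated with each group, and the leading genes of clusters. The members and lists were chosen with earlier results of these data known.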

Additional observations from a re-analysis of the deposited data

How the results depend on the processing

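No paired analysis was possible because each genotype has 1 library, and for the same reason no library could be left out. Over the 14 alternatives of each member, 29 of the 39 members that passed kept the sign of their ratio and 10, all within 0.17 of 0 as described, changed it (*Fos*, *Ier3*, *Btg1*, *Dusp1*, *Dusp5*, *Zfp36*, *Hspa1a*, *Dnaja1*, *Hsp90aa1* and *Hspb1*). The bins of mitochondrial share are not among the 14, so the count of kept signs does not cover them. In cells with under 3% mitochondrial UMIs the immediate-early median was -0.09, beside 0.05 over all genes. There the Egr and Nr4a median was 0.14 and the NF-kB feedback median 0.11, against -0.41 and -0.28 in the libraries. The immediate-early median of -0.33 became -0.30 as a mean over cells, -0.30 in thinned cells, -0.30 in cells of 10000 to 20000 UMIs, -0.30 with at most 5000 genes per cell and -0.28 without cells with markers of other types. The heat-shock median of 0.11 became 0.0827, 0.0774 and 0.0584 under the first 3 of these. Under the last of the 3 the median over all genes was 0.0286. In cells of 10000 to 20000 UMIs, 7 members were at least 1.5-fold lower, beside 2.34% of all genes (*Jun*, *Jund*, *Egr1*, *Klf2*, *Klf4*, *Klf9* and *Hspb1*). 2 alternatives were chosen after seeing the data. Without the clusters with 80% of their cells from 1 library (1 and 9), 1 member was at least 1.5-fold higher (*Hspa1b*) and 2 lower (*Egr1* and *Klf9*), and the medians were -0.27 and 0.16. The share of all genes past that fold was not counted in these cells, so the counts have no background beside them. Without the cluster led by cell cycle genes the immediate-early median was -0.29. Within clusters, the 1 member at least 1.5-fold higher became 0 after scaling by the median ratio, at resolutions of 0.4 and 1.2, with 20 principal components and without the further genes among the variable genes. The fold between the highest and the lowest cluster depends on the clusters drawn. For the immediate-early sum, 1.9 as described, it was 1.61 and 1.95 at resolutions of 0.4 and 1.2, 1.69 with 20 principal components, 1.95 with the members and 1.79 without the further genes among the variable genes. For the heat-shock sum, 1.59 as described, these were 1.18, 1.84, 1.53, 1.67 and 1.46, and 1.69 in thinned cells. The cause of these shifts was not tested. Depth limits *Egr3*, at 3 and 6 UMIs, and the cluster values of *Hspb1*.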

Other observations

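Among the genes with the lowest ratios, *Klf9* and *Fkbp5* are both known to be induced by glucocorticoids, so other genes known for induction by glucocorticoids or for rhythmic expression were looked up after these values had been seen, with no test. *Fkbp5* and *Klf9* were lower in *Fcmr*-/- cells in 10 of 10 clusters, with means within clusters of -1.80 and -1.43. *Zbtb16*, a zinc finger factor of low level here, stood at 4.63 and 0.963 CPM (-1.52) and *Tsc22d3* (GILZ), an inhibitor of AP-1 and NF-kB, at 234 and 161 CPM (-0.54), and both were lower in 10 of 10 clusters. The clock gene *Per1* stood at 69.6 and 59.7 CPM (-0.22) and was lower in 9. *Per2* stood at 4.32 and 1.79 CPM (-0.93), lower in 9 clusters, and *Nr1d1* at 6.61 and 3.36 CPM (-0.80), lower in 8. *Errfi1* stood at 121 and 90.6 CPM (-0.41), lower in 8 clusters, *Bhlhe40* at 124 and 91.1 CPM (-0.44), lower in 9, and *Ddit4* at 31.1 and 28.1 CPM (-0.14), lower in 7. The others were mixed over clusters. *Sgk1* stood at 147 and 137 CPM (-0.10) and *Dbp* at 17.4 and 13.01 CPM (-0.39), each lower in 6 of 10, with means within clusters of -0.04 and -0.10. *Sesn1* stood at 15.1 and 12.98 CPM (-0.21), lower in 4, with a mean of 0.04. Of the 14 genes looked up, which include *Klf9* and *Fkbp5* themselves, *Nfil3* was higher in the libraries, at 109 and 121 CPM (0.15), and lower in 4 clusters. The list was picked by hand and is not complete. It leaves out the members *Dusp1* (-0.03) and *Zfp36* (0.06), which glucocorticoids can also induce. A role of glucocorticoids or of the clock was not tested.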
